A study of Mus musculus with 17 samples.

Results

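The cells that carried both cleavage fragments of p65/RelA (1-361+362-549, 3 arrays) were set against the cells that carried the non-cleavable point mutant D361E (4 arrays), over all 15263 genes that could be tested. These 7 arrays were chosen by the source name of each sample, out of 17 arrays of the series. All groups were DA1-3b, a murine Bcr-Abl+ leukaemia line (strain given as mouse C3H eOuJ), grown in DMEM with serum and transfected with a plasmid or a pair of plasmids. In the 1-361+362-549 group the plasmids coded for residues 1 to 361 and for residues 362 to 549 of p65, and in the D361E group for the full-length protein with the mutated cleavage site. Wild-type p65 (WT, 4 arrays) and each fragment alone (3 arrays each) served here only to place the difference. Cells with a void plasmid were not analysed here, and the labels do not say whether a line was 1 clone or a pool, or whether the cells' own RelA had been removed. Nothing in them says that replicates were cultured separately, so p-values reflect only how these arrays scatter, possibly for technical reasons.

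RelA, also called p65, is the main activating member of the NF-kB transcription factors. Its N-terminal part holds the Rel homology domain, which binds DNA, pairs with other subunits and is held by the IkB inhibitors, and its C-terminal part holds the transactivation domains that recruit coactivators. Caspases cut proteins after aspartate, so that a cut between the parts separates DNA binding from transactivation, and a change of that aspartate to glutamate takes the site away. In leukaemia cells NF-kB is best known for driving survival genes, chemokines and its own inhibitors.

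Levels below are log2 processed intensities relative to the 75th percentile of the array, so that 0 is the brightness of that percentile and negative values lie under it. Levels of different genes come from different probes and were not set against each other. Changes are limma estimates ± SE of 1-361+362-549 minus D361E on the log2 scale, so that 1 is a doubling. A gene counts as measured where a probe was well above background on all arrays of at least 1 of the 5 groups, and its brightest such probe is given. A gene dim on all arrays of 1 group was therefore measured only through another group where it was brighter, which favoured the direction of its change beforehand. A gene was called at a limma p of under 0.05 after Benjamini-Hochberg adjustment over all 15263 genes. Genes given as examples of no call were chosen after their values were seen. In bulk RNA, fewer cells with a transcript and less of it per cell cannot be told apart. The 75th percentile lay between 847 and 1214 intensity units with both fragments and between 668 and 899 with D361E, and 51.2% to 53.9% of the spots were well above background on these 7 arrays. Array levels correlated across genes at 0.966 to 0.994 within 1-361+362-549, at 0.968 to 0.992 within D361E and at 0.947 to 0.979 between the groups, where genes are not independent replicates. The arrays 1-361+362-549 replicate 3 and D361E replicate 4 lay at opposite ends of the spread within groups. On the first axis of the spread within groups, which held 47.4% of it, they scored 58.5 and -52.8, and counts without each are given with the first result.

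Rela itself was read by 1 probe (chromosome 19, 5648070 to 5648129, build mm9) and whether that probe reads the plasmid transcripts was not tested. Its level was 4.94, 4.86 and 4.79 with both fragments and 4.62, 4.79, 4.66 and 4.88 with D361E. The groups overlapped, and the difference of 0.13 ± 0.10 was not called (adjusted p = 0.473). It was -0.081 with normexp background correction and -0.017 within slide 3.

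Markers of a myeloid line were present in part. Of 16 haematopoietic and myeloid progenitor markers 10 were measured, among them the leukocyte phosphatase Ptprc, the interleukin 3 receptor chain Il3ra and the integrin chain Itgam, 3 fell (Spi1, Csf2rb and Csf2rb2), while Kit, Cd34, Mpo, Cebpa, Cd33 and Csf2ra were not well above background on all arrays of any group. All 10 measured genes had changes below 0, and the list median was -0.60 (-0.77 to -0.37 within slides, -0.19 without scaling). Their summed linear level was 112.6 to 149.8 with both fragments and 185.8 to 230.4 with D361E, without overlap. Ptprc itself did not differ detectably (-0.15 ± 0.23, adjusted p = 0.719). The B cell markers Cd79a, Ms4a1 and Pax5 and the T cell markers Cd8a, Cd2 and Zap70 were not well above background on all arrays of any group either. B cell markers had 0 of 5 called, T cell markers 1 higher (Cd5) and 2 lower (Cd3g and Cd3d) of 7, and fibroblast and endothelial markers 0 of 2. With slide as a block Cd5 was not called (adjusted p = 0.0586).

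Between the groups 1481 genes were called, 9.7% of those tested. With both fragments 659 genes were higher (4.32%) and 822 lower (5.39%), and larger changes were mostly falls. Counts of called list members below are to be read beside these 2 shares. Among called genes with a change of at least 1, 221 rose and 466 fell, and at a change of at least 4 the numbers were 9 and 50. The groups did not overlap on any array for 2726 genes (17.9%). Blocking on slide left 785 genes, 277 of them higher, and 765 of the 785 were among the 1481. The slide block left 7 residual degrees of freedom, against 12 without it. Leaving out 1-361+362-549 replicate 1 or 2 gave 863 and 893 genes, leaving out D361E replicate 2 gave 955, leaving out D361E replicate 1 gave 1002, and leaving out 1-361+362-549 replicate 3 or D361E replicate 4 gave 2463 and 2750. Without scaling between arrays 86.1% of called genes were higher, against 44.5%, while the median change over all genes moved from 0.00 to 0.41. That setting also turned the sign of the list medians of haematopoietic transcription factors (to 0.03), other NF-kB targets (0.16), p53 targets (0.13), cytokine receptors (0.15), tumour necrosis factor genes (0.12), STAT5 output (0.20), immediate early genes (0.14), granulocyte markers (0.03), T cell markers (0.05), transforming growth factor beta, Wnt and Notch genes (0.19), fibroblast and endothelial markers (0.30) and NF-kB inhibitors (from -0.0040 to 0.41). Each of these medians was negative when arrays were scaled to the 75th percentile.

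**Figure D1:**
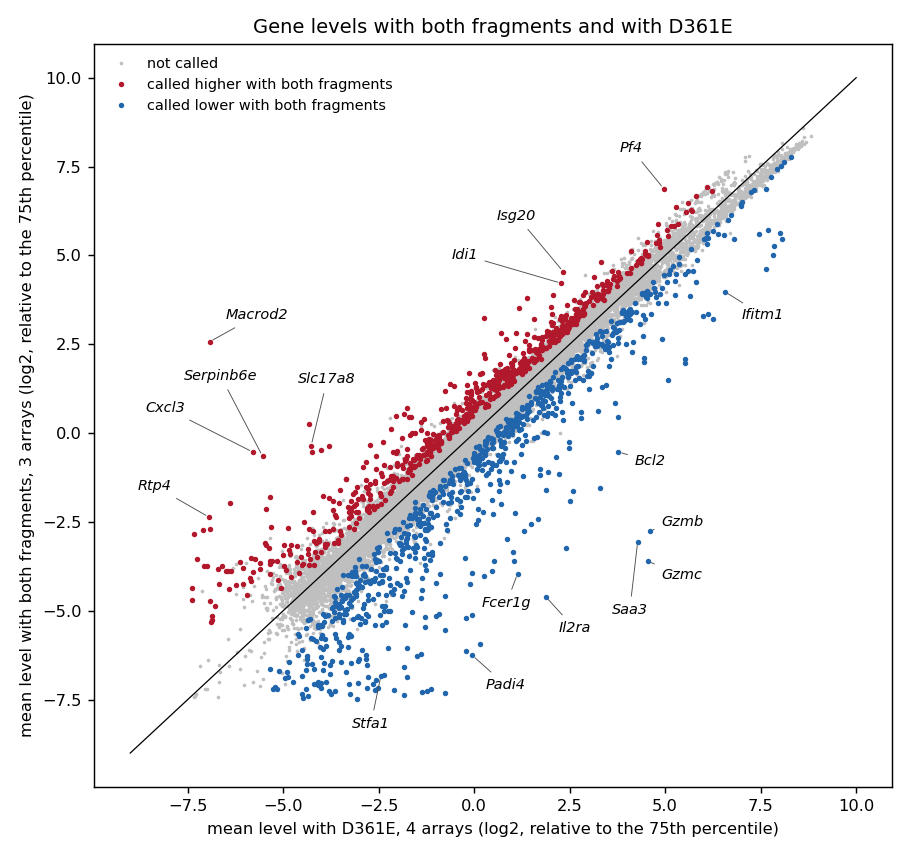
Mean level of each of 15263 genes with D361E (x axis, 4 arrays) against its mean level with both fragments (y axis, 3 arrays), both as log2 relative to the 75th percentile; the line marks equal levels, and colours mark called genes. Points far below the line (Gzmc, Gzmb, Saa3) outnumber those far above it, and Macrod2 stands alone at the upper left.

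The median difference varied with the level of the gene. Among the 2625 genes with a mean level from 2 to 4 the median change was 0.13, and among the 722 genes with a level of at least 6 it was -0.33, with 4 genes called higher and 28 lower. Called genes of that brightest class are therefore read against a median below 0.

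Among the largest falls with both fragments were genes of cytotoxic granules, the acute phase and immune receptors. Gzmc and Gzmb, neighbouring genes for granzymes, the serine proteases of cytotoxic granules, were at high levels with D361E and far lower with the fragment pair. Saa3, an acute-phase serum amyloid that NF-kB is known to induce, and Il2ra, the high-affinity chain of the interleukin 2 receptor, did likewise. Gzmb (chromosome 14, 56877916 to 56877975, mm9) read -2.89, -2.66 and -2.69 with both fragments and 4.07, 4.63, 5.06 and 4.61 with D361E. The change was -7.34 ± 0.46 (adjusted p = 6.13e-08). Gzmc (chromosome 14, 56850307 to 56850366) read -3.91, -3.59 and -3.31 against 4.43, 4.63, 4.93 and 4.17, a change of -8.15 ± 0.36 (1.11e-09). Of 18 natural killer and cytotoxic genes 5 were measured, and these 2 alone were called, so the summed linear level of the 5 was 2.06 to 3.76 with both fragments and 41.35 to 66.8 with D361E, in units of the 75th percentile. Gzma, Klrd1, Klrk1 and Ncr1 were not well above background on all arrays of any group, and the part of other cells in these falls was not tested.

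Saa3 (chromosome 7, 53970389 to 53970448) read -2.67, -2.79 and -3.71 with both fragments and 3.95, 4.16, 5.28 and 3.73 with D361E, a change of -7.34 ± 0.56 (adjusted p = 4.83e-07). Il2ra (chromosome 2, 11614744 to 11614803) read -4.92, -4.91 and -3.99 against 1.79, 2.27, 1.38 and 2.08, a change of -6.49 ± 0.44 (1.80e-07). In both genes, as the choice of genes required, every array with the fragment pair lay below every D361E array. Fcer1g, the signalling chain shared by several Fc receptors, had nearly the same level on all D361E arrays, at -4.11, -4.38 and -3.37 against 1.12, 1.13, 1.13 and 1.17. It fell by 5.09 ± 0.20 (2.71e-10).

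Bcl2, the founding survival gene of its family, fell by 4.30 ± 0.24 (adjusted p = 1.71e-08). Its levels were -0.43, -0.73 and -0.42 with both fragments and 4.02, 3.79, 4.02 and 3.26 with D361E, with a wide gap between the groups. Of other anti-apoptotic members, Bcl2l1 and Mcl1 changed by 0.11 ± 0.14 and 0.02 ± 0.30 and were not called. Bcl2a1d read -1.19, -0.99 and -1.48 with both fragments and -2.38, -1.73, -1.78 and -1.26 with D361E, also not called. Of 30 measured genes of the BCL2 and caspase list 1 rose (Birc3) and 2 fell (Bcl2 and Casp1), beside 4.32% and 5.39% of all genes. The list median was 0.09, beside 0.00 over all genes. Birc3 and Casp1 were not called with slide as a block (adjusted p = 0.0892 and 0.162). Casp1, an inflammatory caspase, changed by -0.40 ± 0.11, by 0.0046 without scaling, and was not called without 1-361+362-549 replicate 1 or 2 or D361E replicate 2 or 3.

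Several of the 15 largest falls reached the background with both fragments, so only a bound can be given: the mean of the bright group against, on each array of the dim group, the higher of the probe's own signal and the lowest signal among probes well above background. Padi4, which converts arginine to citrulline in granulocytes, was at least 72.1-fold lower, the adaptor Lat2 at least 68.3-fold, and the activating receptor Cd200r3 of basophils and mast cells at least 59.2-fold. Oosp1 was at least 52.8-fold lower, Tmem273 at least 49.2-fold, and Itgax, the integrin chain CD11c of dendritic cells, at least 45.6-fold. The peptidoglycan-binding protein Pglyrp1 was at least 27.4-fold lower (limma adjusted p from 2.71e-10 to 0.000153 for these 7 genes). These p-values, like those of other genes given as a bound, rest partly on the scatter of background signal. Both probes of Padi4 fell, but by 6.20 and 2.11. Prg2 (the eosinophil granule major basic protein) and Tph1 (the tryptophan hydroxylase of mast cells and gut) fell by 5.64 ± 0.71 and 5.06 ± 0.26. Prg2 varied widely within groups, with 1.02 to 3.89 on the D361E arrays and -4.44 to -1.88 with the fragment pair.

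**Figure D2:**
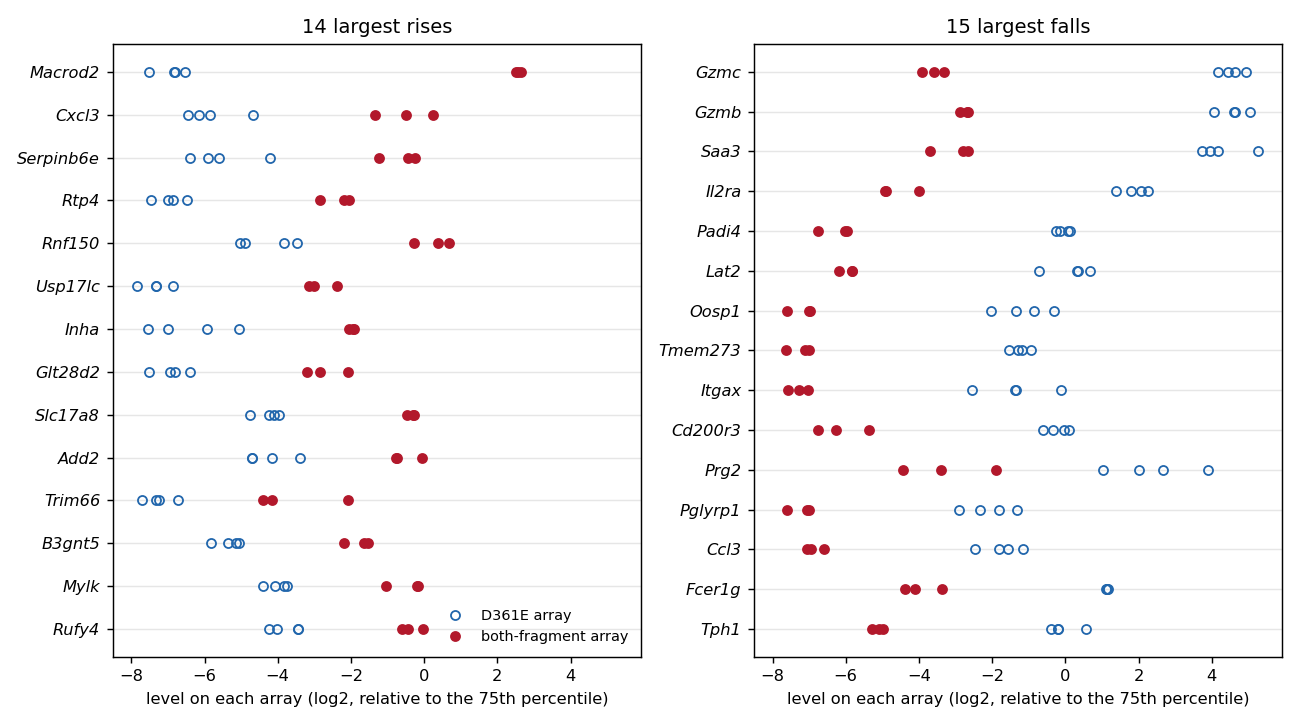
Level on each array (x axis, log2 relative to the 75th percentile) of the 14 genes with the largest rises and the 15 with the largest falls among called genes whose groups do not overlap; filled points are the 3 arrays with both fragments and open points the 4 D361E arrays. The gap between the groups is widest for Macrod2 on the left and for Gzmc and Gzmb on the right.

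Among the rises Macrod2, a hydrolase of ADP-ribose marks, stood apart. It read 2.55, 2.51 and 2.66 with both fragments (chromosome 2, 142218642 to 142218701, mm9) and was not well above background on any D361E array, at -6.52, -6.82, -6.83 and -7.52. The level with both fragments was at least 595-fold higher. Its 2 probes gave log2 changes of 9.49 and 10.62, whose sizes depend on background signal with D361E. On the arrays of all other groups its level was -7.52 to -6.42. Its p-value (limma adjusted p = 1.10e-12) therefore rests largely on scatter near background. The chemokine gene Cxcl3, a neutrophil attractant, was at least 35.6-fold higher, at -0.49, -1.34 and 0.23 against -6.45, -5.85, -4.68 and -6.16 (1.59e-06). It was not well above background on any D361E array, so its p-value rests partly on background scatter.

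Serpinb6e, a serine protease inhibitor, rose by 4.89 ± 0.42, Rnf150, a RING-finger gene, by 4.58 ± 0.79 and Slc17a8, a vesicular glutamate transporter, by 3.91 ± 0.22. The receptor-trafficking and interferon-inducible gene Rtp4 was at least 19.5-fold higher, the inhibin subunit Inha at least 19.0-fold, Glt28d2 at least 15.3-fold, the deubiquitinase Usp17lc at least 13.9-fold, and the glycosyltransferase B3gnt5 at least 11.8-fold. Trim66 was at least 8.60-fold higher. Add2 (adducin), Rufy4 and Mylk (myosin light chain kinase) rose by 3.72 ± 0.34, 3.43 ± 0.36 and 3.53 ± 0.26. The 2 probes of Mylk gave 3.53 and 0.29, the 2 of Slc17a8 3.91 and 6.95, and the 3 of Rnf150 2.54 to 4.58.

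Against WT 785 genes were called with both fragments (5.14% of those tested) and 74 with D361E (0.485%), and both comparisons share the WT arrays. The counts went to 246 and 24 with slide as a block and to 199 and 12 with normexp. The first was 471 without 1-361+362-549 replicate 1, 450 without replicate 2 and 1242 without replicate 3, and the second 48, 39 and 44 without D361E replicate 1, 2 and 3. For Gzmb the change from WT was -6.64 ± 0.46 with both fragments (adjusted p = 2.08e-07) and 0.71 ± 0.43 with D361E (1.00). For Saa3 these changes were -7.40 ± 0.56 (5.84e-07) and -0.06 ± 0.52, for Bcl2 -4.22 ± 0.24 (2.12e-08) and 0.08 ± 0.22, and for Macrod2 9.40 ± 0.22 (1.27e-12) and -0.10 ± 0.21. In these 4 genes only the fragment pair was called against WT. The genes set against WT were named for their changes on the pair arrays, so a call of the pair against WT was favoured beforehand. The Macrod2 values against WT rest on signal near background in WT and in D361E.

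Other genes were called against WT on both sides. Ccl3 changed from WT by 2.42 ± 0.25 with D361E (adjusted p = 0.0001) and by -2.70 ± 0.27 with both fragments (1.44e-05). Stfa1 changed by 2.84 ± 0.32 (0.00021) and -1.55 ± 0.35 (0.0147), and Cebpe by 0.92 ± 0.18 (0.0337) and -0.77 ± 0.20 (0.0319). The means of these genes lay above WT with D361E and below it with the pair. Ccl3 and Stfa1 were not well above background on any array with the pair, so their changes from WT rest partly on background signal. Stfa1 read -6.17, -7.21 and -7.10 with the pair and -5.87, -5.08, -5.72 and -4.45 with WT. Cpa3, a carboxypeptidase of mast cells, was below WT in each group, by -2.54 ± 0.33 with D361E and -7.37 ± 0.35 with both fragments on the log2 scale.

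The fragment pair was also set against the mean of the 2 single fragments, and 3157 genes differed (20.7%), 1333 higher and 1824 lower with the pair. Gzmb differed by -8.11 ± 0.43 (adjusted p = 8.04e-09), Bcl2 by -4.38 ± 0.22 (6.94e-09), Fcer1g by -6.08 ± 0.18 (1.32e-11) and Macrod2 by 9.17 ± 0.21 (5.85e-13). These genes differed from the single fragments in the same direction as from D361E. Both comparisons share the pair arrays, and the genes were named for their changes on them, so that direction was nearly fixed beforehand. The mean also hides that Fcer1g read 3.49 to 3.72 with 1-361 and 0.33 to 0.87 with 362-549. Macrod2 was near background with each single fragment. Nfkbia, which encodes the inhibitor IkBalpha, differed by 0.29 ± 0.20 (0.309, not called), with levels of 4.02 ± 0.30 (SD, n = 3) with 1-361 and 3.55 ± 0.48 (SD, n = 3) with 362-549. The count of 3157 went to 539 with slide as a block, to 1062 without 1-361+362-549 replicate 2, to 1291 without replicate 1 and to 5332 without replicate 3.

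**Figure D3:**
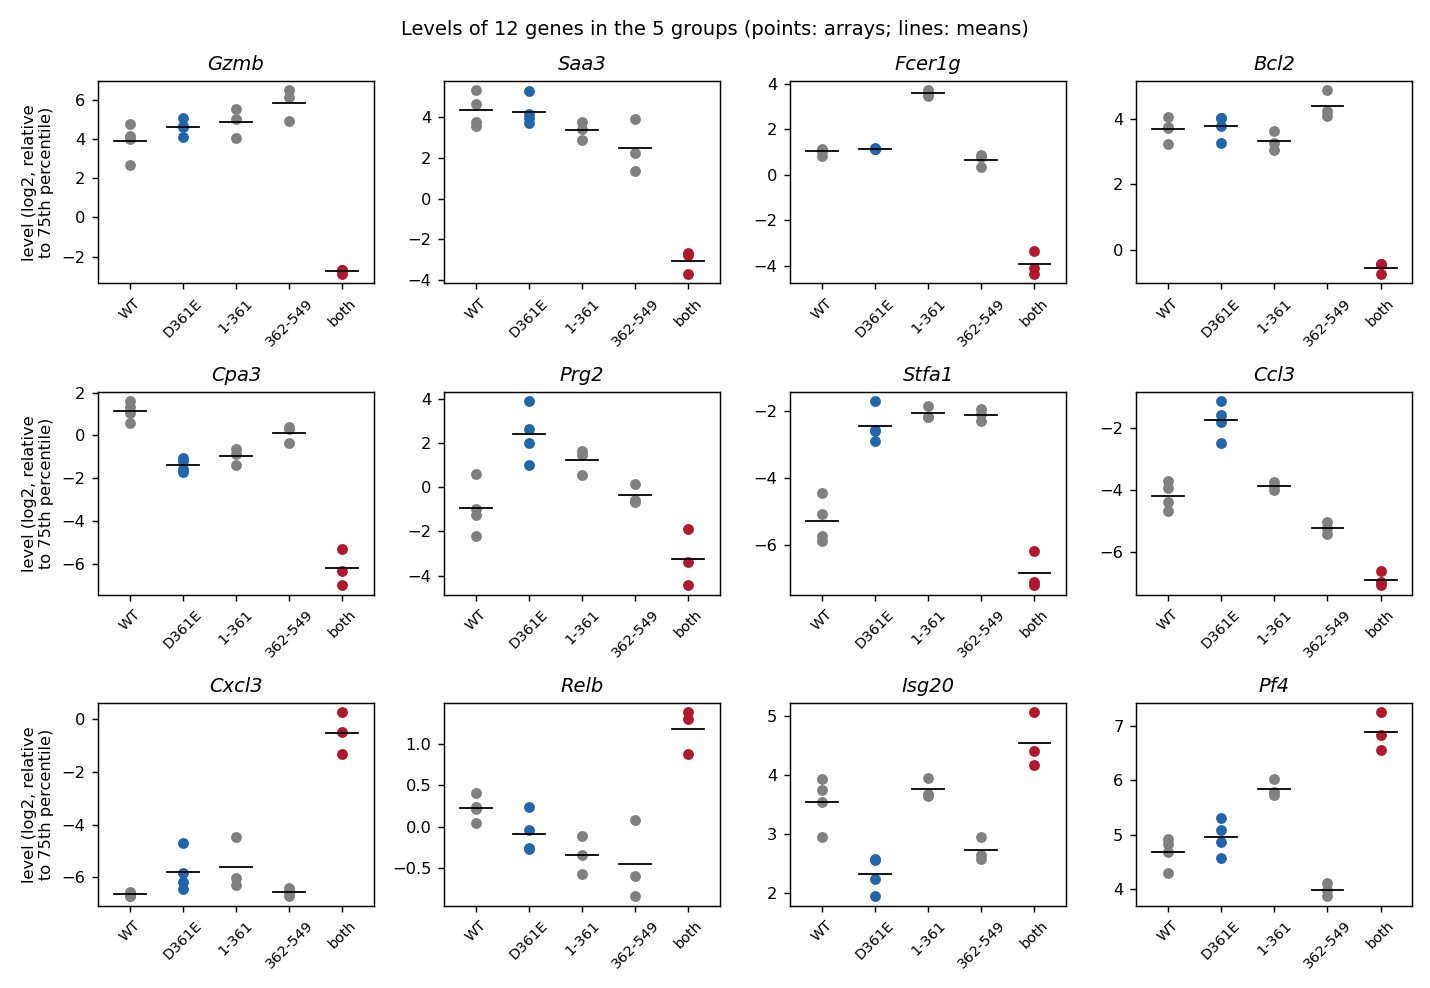
Level of 12 genes (y axis of each panel, log2 relative to the 75th percentile) on every array of the 5 groups (x axis); points are arrays and lines group means, with D361E in blue and both fragments in red. Gzmb, Saa3, Fcer1g and Bcl2 have their lowest mean with the pair and higher means in the other 4 groups, Ccl3 and Prg2 have their highest mean with D361E, and Stfa1 is low with WT too.

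NF-kB subunit genes and the chemokines that NF-kB induces held changes of both directions. In the list of subunits, kinases and adaptors 4 of 25 measured genes rose and 1 fell, beside 4.32% and 5.39% of all genes. The median change was 0.15 (0.00 over all genes). Relb and Nfkb2 encode the partners of the alternative NF-kB pathway, and both are known NF-kB targets. Relb (chromosome 7, 20191722 to 20191781) read 1.29, 1.37 and 0.87 with both fragments and -0.27, -0.04, -0.26 and 0.24 with D361E, a change of 1.26 ± 0.21 (adjusted p = 0.00112). Nfkb2 read 1.66, 1.68 and 0.98 against 0.17, 0.39, 0.40 and 0.64, a change of 1.04 ± 0.19 (0.00231). In both genes the groups did not overlap, and replicate 3 was the lowest of the fragment-pair arrays. The 3 probes of Relb ranged from -0.14 to 1.27.

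Nfkb1, the gene of p105 and p50, rose by 0.76 ± 0.20 (adjusted p = 0.0263) and the receptor kinase Ripk1 by 0.75 ± 0.19 (0.0181), while the kinase Irak4 fell by 1.24 ± 0.34 (0.029). With slide as a block these 3 were not called (0.102, 0.0619 and 0.0991), and each lost its call without 1-361+362-549 replicate 1 or 2 or D361E replicate 1. Nfkb1 lost it also without D361E replicate 2 or 3, and Ripk1, whose groups overlapped, without D361E replicate 3. The IkB kinase genes Chuk, Ikbkb and Ikbkg changed by -0.09 ± 0.14, 0.15 ± 0.24 and 0.19 ± 0.28, none called.

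Of 15 inhibitors and feedback regulators 2 rose and 2 fell, beside 4.32% and 5.39% of all genes, and the list median was 0.00. Nfkbia read 4.31, 3.76 and 4.15 with both fragments and 5.09, 5.11, 4.67 and 4.79 with D361E, a fall of 0.84 ± 0.22 (adjusted p = 0.0228). Tnfaip3, the ubiquitin-editing inhibitor A20, fell by 0.79 ± 0.24 (0.0485), whereas Birc3, a ubiquitin ligase of the same feedback, rose by 0.70 ± 0.17 (0.0143) and Tnfaip2 by 0.46 ± 0.13 (0.0375). When slide was a block, the adjusted p of these 4 genes went from 0.0892 to 0.138. Nfkbia lost its call without 1-361+362-549 replicate 2 or D361E replicate 1 or 2, Tnfaip2 without 1-361+362-549 replicate 1 or 2 or D361E replicate 1 or 2, and Tnfaip3 without any single array except 1-361+362-549 replicate 1. Nfkbie, the gene of IkBepsilon, changed by 0.48 ± 0.16 and was not called (0.0789).

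Cytokines and chemokines fell more often than they rose. Of 23 such NF-kB target genes 12 were measured, 5 fell and 1 rose, and the median was -0.54 (-0.88 to -0.50 within the 3 slides that held both groups). Ccl3 and Ccl4, paired macrophage chemokines, were among the 5. Ccl3 was at least 32.6-fold lower with both fragments, at -7.06, -6.96 and -6.60 against -1.81, -1.15, -1.58 and -2.48 (adjusted p = 9.56e-09). Ccl4 read -3.53, -3.89 and -2.63 against 1.03, 1.06, 1.502 and 0.44, a fall of 4.36 ± 0.39 (2.19e-06). The macrophage growth factor Csf1 fell by 2.40 ± 0.24, and the chemokines Ccl9 and Ccl5 by 2.33 ± 0.39 and 1.69 ± 0.30. Cxcl3 alone of the list rose. Tnf changed by 0.30 ± 0.26 and Il6 by 0.74 ± 0.30, neither called, and Il1b, Ccl2, Cxcl1 and Cxcl2 were among the 11 genes that were not measured.

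Of 22 other NF-kB targets 0 rose and 5 fell (median -0.25). Besides Saa3 these were the tumour necrosis factor receptor Tnfrsf1b (-1.49 ± 0.21), the early response gene Ier3 (-0.98 ± 0.17), the costimulatory ligand Cd80 (-0.91 ± 0.16) and the adhesion receptor Cd44 (-0.68 ± 0.20, adjusted p = 0.0453). The call of Cd44 was lost with slide as a block (0.152) and without any single array except D361E replicate 4. The 2 probes of Cd80 gave -0.91 and 0.28. Among tumour necrosis factor ligands and receptors 2 of 16 rose and 1 fell: Tnfsf13b, the B cell survival factor BAFF, rose by 2.13 ± 0.22 (1.21e-05), Tnfrsf13b, a receptor for it, by 0.73 ± 0.20, and Tnfsf14 (LIGHT) fell by 1.09 ± 0.21. The call of Tnfrsf13b was lost with slide as a block (0.125) and without any single array except 1-361+362-549 replicate 3 or D361E replicate 4.

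Promoter sequence was read for the called genes of these lists, to show where the letters of a kB site stand in genes that moved either way. The sequences are from RefSeq on GRCm38.p6, 250 bases before each start, read along the gene's strand, and the capitals mark the match to the 10-base kB consensus (searched on both strands, where overlapping matches, as on both strands of Cxcl3 and Nfkb2, count once per gene). Cxcl3 and Nfkb2 rose, and Nfkbia and Ccl9 fell.
Cxcl3, chr5:90786013-90786052, plus strand: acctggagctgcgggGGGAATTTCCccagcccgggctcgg
Nfkb2, chr19:46304683-46304722, plus strand: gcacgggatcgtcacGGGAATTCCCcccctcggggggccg
Nfkbia, chr12:55492652-55492691, minus strand: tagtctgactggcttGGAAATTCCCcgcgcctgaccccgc
Ccl9, chr11:83578647-83578686, minus strand: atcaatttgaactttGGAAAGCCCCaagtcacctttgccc

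The match lay 73 to 64 bases before the start in Cxcl3, 39 to 30 in Nfkb2, 29 to 20 in Nfkbia and 35 to 26 in Ccl9. A match was found in 2 of the 5 risers that the table held, in 5 of 11 fallers (Nfkbia, Ccl9, Csf1, Ier3 and Tnfaip3) and in 14 of 45 list genes not called. Of all 27025 genes with a promoter sequence 4.46% held one (3.90% of 32851 promoters). The letters stood in genes of each direction, and a match is a description of sequence only.

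Of the 38 lists the interferon-stimulated genes, which encode antiviral effectors, sensors and their transcription factors, had the most risers and also the most measured genes. By share of risers the megakaryocyte and platelet list stood higher, with 5 of 9. Of 54 interferon-stimulated genes 46 were measured, 21 rose and 3 fell, beside 4.32% and 5.39% of all genes. Their median change was 0.64 (0.00 over all genes). Within the 3 slides with both groups the median was 0.49 to 0.64. When slide was a block 13 rose and 3 fell, and leaving out 1 array gave 13 to 27 risers and 3 fallers. The effector Isg20, an RNA exonuclease, read 4.41, 4.17 and 5.06 with both fragments and 2.58, 2.24, 2.56 and 1.95 with D361E, a rise of 2.21 ± 0.25 (adjusted p = 2.48e-05). Mx2, a dynamin-like antiviral GTPase, read -0.995, -1.29 and -1.56 against -3.13, -3.09, -3.26 and -3.92, a rise of 2.07 ± 0.25 (4.54e-05). The groups lay apart in both genes.

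Parp9 rose by 1.25 ± 0.14 and Ifi47, an immunity-related GTPase, by 1.00 ± 0.12. The following were named after their values were seen. The ubiquitin-like modifier Isg15 rose by 2.12 ± 0.34 (adjusted p = 0.000863), at 0.87, 0.86 and -0.32 against -1.32, -1.57, -1.97 and -1.74. Ifit1, which binds foreign RNA, was at least 7.43-fold higher (0.00469). It was not well above background on any D361E array, so its p-value rests partly on background scatter. Irf7, the transcription factor of the interferon response, rose by 1.52 ± 0.28 (0.00273) and Irf9, a subunit of the interferon-activated factor ISGF3, by 0.77 ± 0.13 (0.00121). Its partner Stat2 changed by -0.21 ± 0.22, not called (0.59).

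The 3 that fell were Ifitm1, Gbp4 and Gbp2. Ifitm1, a membrane protein that blocks viral entry, read 3.89, 4.12 and 3.92 with both fragments and 6.39, 6.59, 6.50 and 6.79 with D361E, a fall of 2.59 ± 0.14 (adjusted p = 9.56e-09). Gbp4 was at least 10.4-fold lower (1.82e-05) and Gbp2 fell by 1.63 ± 0.30 (0.00274). Both encode guanylate-binding proteins, whose relative Gbp7 rose by 0.55 ± 0.15 (0.0270). Of 23 measured genes of MHC and antigen presentation, which interferon also induces, 0 were called (median 0.05).

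**Figure D4:**
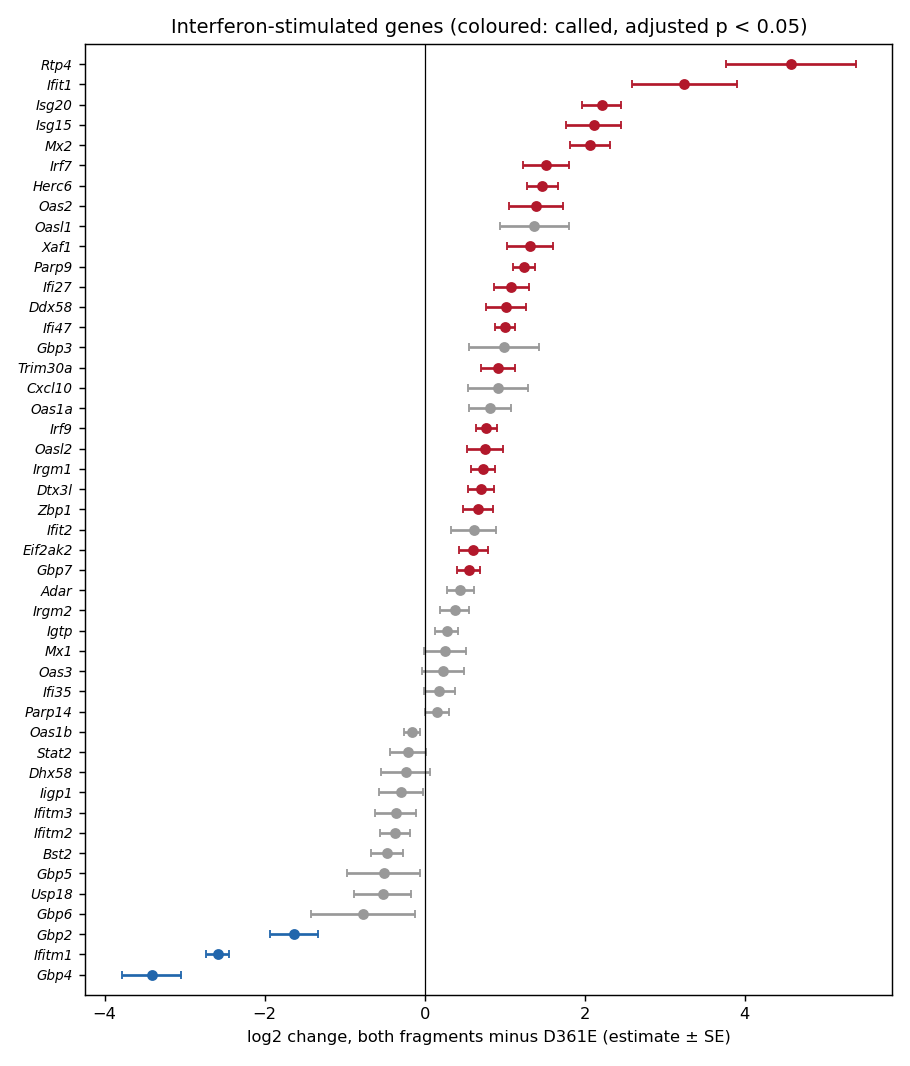
Change of each of the 46 measured interferon-stimulated genes (x axis, 1-361+362-549 minus D361E, log2 estimate ± SE), ordered by size; red and blue mark the 21 called higher and the 3 called lower, grey those not called. Rtp4, Ifit1, Isg20, Isg15 and Mx2 lead the risers, and Ifitm1 and Gbp4 lie farthest on the other side.

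The interferon-stimulated response element was searched as GAAANNGAAA on both strands of the same 250-base windows, to show it in a riser with several copies, a riser with the other orientation and a faller. Capitals mark the match, and in Isg15 further overlapping matches follow within the lower-case letters.
Isg15, chr4:156200872-156200911, minus strand: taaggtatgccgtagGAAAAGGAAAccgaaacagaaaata
Ifit1, chr19:34640770-34640809, plus strand: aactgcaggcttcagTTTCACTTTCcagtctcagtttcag
Gbp2, chr3:142620589-142620628, plus strand: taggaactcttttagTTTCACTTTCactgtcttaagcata

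The element was found in 5 of the 15 risers in the table (Isg15, Ifit1, Irgm1, Gbp7 and Trim30a), in 1 of 2 fallers and in 10 of 15 list genes that were measured and not called, beside 3.46% of all 27025 genes (2.98% of promoters). Of these 15 risers 0 held the kB consensus in that window, and of the 5 NF-kB risers 0 held the interferon element. As with the kB consensus, the letters stood in genes that moved and in genes that did not.

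Of 12 measured mast cell and basophil markers 0 rose and 7 fell (median -2.63, and -3.40 to -1.84 within slides), of 4 eosinophil markers 3 fell (median -4.08) and of 7 stefin A and cystatin-like genes 6 fell (median -3.38). Members dim on all arrays with both fragments, such as Cd200r3, Epx and Stfa1, were measured only through groups where they were brighter. Members dim in every group dropped out. Falls were thus favoured beforehand, and these counts and medians do not describe the whole lists. With normexp background correction these medians were -0.54, -1.65 and -0.70, with 3, 1 and 0 genes called lower. The summed linear level of the 12 mast cell and basophil genes was 33.1 to 40.7 with both fragments and 40.3 to 64.98 with D361E, in units of the 75th percentile, and the groups overlapped. For the eosinophil genes it was 0.823 to 1.04 against 2.88 to 17.7, and for the stefins 6.999 to 7.34 against 8.42 to 11.25. Among the defining mast cell genes Kit, Ms4a2 and Tpsab1, and among those of eosinophils Il5ra, Ccr3 and Prg3, were not well above background on all arrays of any group, and the part of a mixed cell population in these falls was not tested.

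Cma1, a mast cell chymase, read -2.601, -2.64 and -2.99 with both fragments and 1.05, 1.41, 1.62 and 1.17 with D361E, a fall of 4.06 ± 0.26 (adjusted p = 9.67e-08). Cpa3, which is stored with it, fell by 4.83 ± 0.35, and Fcer1a, the IgE-binding chain of the receptor that Fcer1g serves, was at least 8.34-fold lower. The cytokine Il13 was at least 9.51-fold lower, and its neighbour Il4, named after its value was seen, fell by 3.01 ± 0.54 (0.002). In contrast Hdc, the histamine-forming enzyme, and the transcription factor Mitf changed by 0.38 ± 0.14 and 0.37 ± 0.23, not called. The eosinophil peroxidase Epx was at least 22.04-fold lower and the ribonuclease Ear6 fell by 3.41 ± 0.71.

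The stefins, small inhibitors of cysteine proteases, were called lower in 6 of 7 measured genes. Stfa1 was at least 18.6-fold lower with both fragments, at -6.17, -7.21 and -7.10 against -2.89, -2.57, -2.58 and -1.71. Cstdc4 was at least 18.1-fold lower, Stfa2l1 at least 12.2-fold, Stfa2 at least 9.35-fold and Stfa3 at least 4.25-fold, and Cstdc5 fell by 2.70 ± 0.46. Probes of these near-identical genes may share signal. With normexp background correction 0 of the 6 was called (adjusted p from 0.0504 to 0.928), with changes of -1.85 to -0.15.

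Of 9 measured monocyte and macrophage markers 3 fell: Adgre1 (F4/80) was at least 15.0-fold lower, Cd68 fell by 1.65 ± 0.41 and Lyz1 by 0.84 ± 0.22. The calls of Cd68 and Lyz1 were lost with slide as a block and without 1-361+362-549 replicate 1 or 2 or D361E replicate 2 or 3, and that of Cd68 also without D361E replicate 1. Of 6 granulocyte markers 1 fell, the transcription factor Cebpe, and S100a8, S100a9, Ltf and Camp were not measured. The summed levels of the macrophage genes were 3.07 to 6.19 with both fragments and 4.75 to 7.77 with D361E, with Cd14, Mrc1 and Cx3cr1 not measured, and the part of such cells was not tested. Of 11 erythroid and globin genes 1 rose (Epor, 0.44 ± 0.11) and 4 fell, the globins Hbb-bs, Hbb-bh1 and Hbb-b2 and the erythroid factor Klf1 (-0.86 ± 0.18). Hbb-bh1, an embryonic globin, changed by -1.75 ± 0.37. Epor was not called with slide as a block (0.0838), nor without 1-361+362-549 replicate 1 or 2 or D361E replicate 1 or 3. Hbb-bs lost its call without any single array except 1-361+362-549 replicate 3 or D361E replicate 4, and Hbb-b2 without 1-361+362-549 replicate 2 or D361E replicate 2.

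Megakaryocyte and platelet genes went the other way, with 5 of 9 higher, 0 lower and a median of 1.02 (0.89 to 1.29 within slides). Pf4, the platelet chemokine, read 6.83, 6.56 and 7.24 with both fragments and 4.88, 5.09, 5.31 and 4.58 with D361E, a rise of 1.91 ± 0.20 (adjusted p = 1.34e-05). Itgb3, the beta chain of the platelet fibrinogen receptor, read 4.06, 3.90 and 3.69 against 2.43, 2.35, 1.93 and 1.55, a rise of 1.82 ± 0.24 (0.000121). Each pair of groups lay apart. Treml1 and Gp5, platelet surface proteins, also rose by 1.73 ± 0.38 and 1.61 ± 0.30. Itga2b, the alpha chain that pairs with Itgb3, changed by -0.41 ± 0.20, not called (0.215), and Vwf was not measured. The summed level of the 9 genes was 134 to 210 with both fragments and 46.5 to 77.7 with D361E, and the part of megakaryocytic cells in these rises was not tested.

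**Figure D5:**
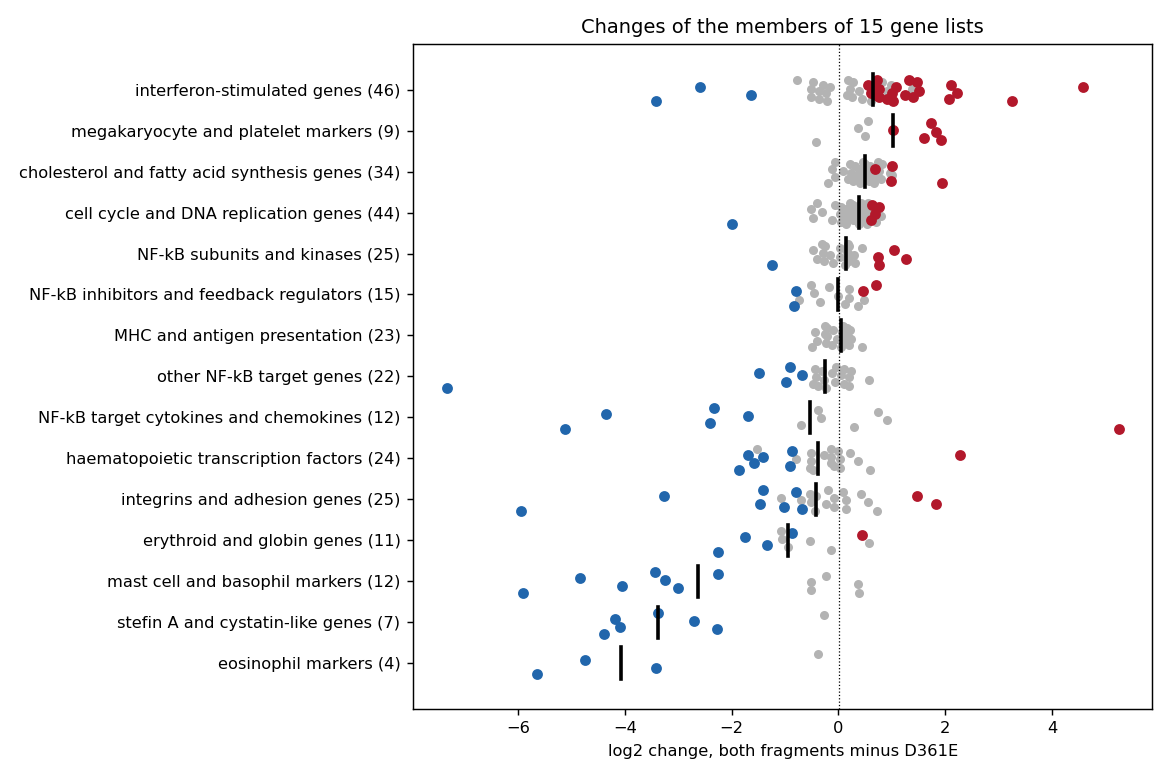
Change of every measured member (points; x axis, 1-361+362-549 minus D361E, log2) in 15 gene lists, with the number measured in brackets; red and blue points are called higher and lower, black bars list medians, and the dotted line the median over all genes. The interferon and platelet lists lie to the right, and the mast cell, stefin and eosinophil lists far to the left.

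Of 24 haematopoietic factors 1 rose and 6 fell, with a median of -0.38 (-0.51 to -0.20 within slides). Cebpe, which drives granule genes, read 2.77, 2.64 and 2.80 with both fragments and 4.39, 4.53, 4.21 and 4.58 with D361E, a fall of 1.69 ± 0.20 (adjusted p = 3.39e-05). Cebpb, a relative of it, fell by 1.58 ± 0.18 (2.74e-05), Spi1 (PU.1) by 1.41 ± 0.23 (0.000772) and Id2 by 1.86 ± 0.31 (0.00106). Id1 and Klf1 fell by 0.92 ± 0.13 and 0.86 ± 0.18. Erg, an ETS factor of stem cells and megakaryocytes, rose by 2.28 ± 0.39 (0.00141), at -3.90, -3.51 and -2.06 against -5.21, -4.92, -5.85 and -5.75.

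Of 19 cytokine receptor and JAK-STAT genes 4 rose and 3 fell (median -0.26), beside 4.32% and 5.39% of all genes. With slide as a block 2 rose and 4 fell. The common beta chains Csf2rb and Csf2rb2, which serve interleukin 3, read 4.46, 4.28 and 4.94 and 4.14, 4.02 and 4.70 with both fragments. With D361E they read 5.53 to 5.71 and 5.18 to 5.38, and the falls were 1.03 ± 0.15 (adjusted p = 0.000238) and 0.98 ± 0.15 (0.000616). Probes of these near-identical genes may share signal. While Il2ra fell, the partner chains Il2rg and Il2rb rose by 1.09 ± 0.22 and 0.97 ± 0.25, Il2rb being named after its value was seen. Of 20 genes of STAT5 and Bcr-Abl output 1 rose (Spred1) and 3 fell, among them the cytokine Osm by 1.90 ± 0.29 and the feedback inhibitor Socs1 by 1.12 ± 0.27. Socs1 was not called with slide as a block (0.0531), nor without 1-361+362-549 replicate 1 or D361E replicate 1 or 2.

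Among 25 integrins and adhesion genes 2 rose and 7 fell (median -0.41), beside 4.32% and 5.39% of all genes. The lymph node homing receptor Ccr7 fell by 3.27 ± 0.43, Cxcr4, the receptor for the marrow chemokine CXCL12, by 1.46 ± 0.18, the integrin chain Itga4 by 1.42 ± 0.18 and the selectin ligand Selplg by 1.01 ± 0.14. Cxcr2, a receptor for Cxcl3, was 1.47 ± 0.28 higher (adjusted p = 0.00329) and was named after its value was seen.

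Of 44 cell cycle genes 4 rose (Foxm1, Tyms, Rrm2 and Ccna2, by 0.61 to 0.76) and 1 fell, the inhibitor locus Cdkn2a, by 2.00 ± 0.26 (adjusted p = 9.77e-05). With slide as a block Tyms, Rrm2 and Ccna2 were not called (0.0894, 0.112 and 0.175), nor were they without 1-361+362-549 replicate 1 or 2 or D361E replicate 1 or 2, and each was lost without 1 further array (1-361+362-549 replicate 3 for Rrm2, D361E replicate 3 for Tyms and Ccna2). The list median was 0.38, and 0.13 to 0.61 within slides, and with the slide block 1 of the 44 was higher and 1 lower. Over all genes 4.32% were called higher and 5.39% lower. Of 34 genes of cholesterol and fatty acid synthesis 4 rose and 0 fell (median 0.50, 0.03 to 1.13 within slides): the isomerase Idi1 rose by 1.93 ± 0.29 (0.000416), and Nsdhl, Fads2 and Hsd17b7 by 1.00 ± 0.25, 0.99 ± 0.23 and 0.69 ± 0.19. Nsdhl and Hsd17b7 were not called with slide as a block (0.0684 and 0.115), and both lost the call without 1-361+362-549 replicate 1 or D361E replicate 1 or 2, Hsd17b7 also without 1-361+362-549 replicate 2 or 3.

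Ribosome biogenesis and MYC genes (34 measured, median 0.10) and replication-dependent histone genes (12, 0.22) had 0 called, and the median of the former ran from -0.70 to 1.14 within slides. Glycolysis and hypoxia genes, with 1 higher (Eno1) and 1 lower of 33, ran from -0.41 to 0.92, and Hif1a fell by 0.56 ± 0.12 (adjusted p = 0.00747), with -2.26 on its other probe. Eno1 was not called with slide as a block (0.158). Of 30 oxidative phosphorylation genes 1 rose, of 26 endoplasmic reticulum genes 1 rose and of 17 heat shock genes 1 rose, beside 4.32% of all genes. They were the complex I subunit Ndufs3 (0.49 ± 0.11), Creld2 (0.68 ± 0.16) and the cochaperone Stip1 (0.86 ± 0.26, with overlapping groups). Ndufs3 was not called with slide as a block (adjusted p = 0.071) or without 1-361+362-549 replicate 2, Creld2 not without 1-361+362-549 replicate 1 or 2, and Stip1 neither with the block (0.165) nor without any single array except 1-361+362-549 replicate 3 or D361E replicate 4. Of 14 genes of transforming growth factor beta, Wnt and Notch signalling 1 rose (Smad3) and 3 fell (Dvl1, Tgfbr1 and Notch2). Smad3 and Notch2 were not called with slide as a block (adjusted p = 0.162 and 0.061). Smad3 lost its call without any single array except D361E replicate 3, Notch2 without any except 1-361+362-549 replicate 3 or D361E replicate 4, and Tgfbr1 without 1-361+362-549 replicate 1.

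Of 39 integrated stress response genes 2 rose and 5 fell, and with slide as a block 0 rose and 4 fell. The risers were the serine-forming enzyme Psph (0.59 ± 0.16) and the amino acid transporter Slc38a2 (0.54 ± 0.16), and Psph lost its call without any single array except D361E replicate 3 or 4. Among the fallers, Cth, which forms cysteine, was at least 8.66-fold lower, the stress regulator Nupr1 fell by 2.23 ± 0.28 (adjusted p = 8.51e-05), and Atf5 and the glycine transporter Slc6a9 fell by 0.82 ± 0.18 and 0.86 ± 0.19. The fifth was Cebpb. Atf5 was not called with slide as a block (0.069). Of 23 p53 targets 1 rose and 5 fell (median -0.28), led by the antiproliferative gene Btg2, which read -1.05, -1.42 and -1.17 against 1.08, 1.21, 1.63 and 1.17 and fell by 2.48 ± 0.23 (3.77e-06). With slide as a block 2 of those 5 were called, and the riser Sulf2 was not. Of 19 immediate early genes 2 fell, Btg2 and Ier3. Of 28 antioxidant genes 0 rose and 3 fell, namely Taldo1, Gpx4 and Fth1, by 0.58 to 0.97. All 3 were bright genes, whose class had a median of -0.33. Of the 3, 0 were called with slide as a block. Taldo1 lost its call without 1-361+362-549 replicate 2, and Gpx4 and Fth1 without any single array except 1-361+362-549 replicate 3 or D361E replicate 4.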

How the data were processed

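RNA was hybridised to 17 one-colour Agilent arrays (design 026655), and the deposited intensity values are processed signals from Agilent Feature Extraction 10.7.3.1, per the file headers. The authors' value table held the same numbers. Here control and outlier spots were left out, log2 intensity minus the array's log2 75th percentile was computed, and spots of a probe were averaged. Of 39429 probes 19779 were kept (well above background on all arrays of at least 1 group). Accessions named 27508 probes through RefSeq on GRCm38.p6, and the array file named the rest. Probe positions are mm9, per the file headers.

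limma 3.58.1 (R 4.3.3) fitted 1 model to the 5 groups with 12 residual degrees of freedom, with Benjamini-Hochberg adjustment over 15263 genes. Tested on simulated data for 1-361+362-549 against D361E, it recovered 43 of 100 changes of size 1 and 88 of 100 of size 2. The simulated noise was independent between genes and few genes were changed, whereas these arrays shared an axis of spread and 1481 genes were called. The recovery on these arrays may therefore differ. The number of arrays limits the precision. Named genes were Rela, the 15 largest called rises and falls whose groups did not overlap, and up to 6 called genes per list by adjusted p. The members and lists were chosen with earlier results of these data known. Alternatives covered scaling, background, filters, slide and replicate blocks, and leaving out each array. Some genes of these lists are not reported here by name, but they count in the totals.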

Additional observations from a re-analysis of the deposited data

Results flagged for a closer look

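In 5 named genes 1 D361E array lay apart from the other 3, its gap to the nearest of them divided by the group's range, being above Dixon's 95% critical value. For Fcer1g that share was 0.919 (replicate 4 at 1.17, the others 1.12 to 1.13), for Psrc1 0.874 (replicate 4 at 0.72, the others 1.14 to 1.20), for Treml1 0.859 (replicate 4 at 0.11, the others 1.32 to 1.52) and for Cd68 0.850 (replicate 4 at 0.18, the others 0.97 to 1.11). For Tnfrsf1b it was 0.835 (replicate 3 at -3.44, the others -3.17 to -3.11). Chance alone flags about 1 group in 20, and 139 groups of 4 were looked at, so 5 is no more than chance gives. The array in question was replicate 4 in 4 of the 5 genes.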

How the results depend on the processing

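Of 135 named genes other than Rela, 101 kept their call without each array in turn, 100 with slide as a block, 98 with the array median as scale, 91 with the 7 arrays alone and 72 with normexp, and 133 kept their sign in every scaling and background setting. The 2 exceptions were Casp1 (0.0046 without scaling) and Cd3g (0.093 with normexp). Counts below are genes called for both fragments against D361E, then against the mean of the single fragments, then against WT, then for D361E against WT, where given. Without scaling they were 2606 (86.1% higher), 5790 and 434, and with the array median as scale 881 (50.1%), 1201 and 452. With the 75th percentile over probes above background 39.8% were higher. With normexp the counts were 447 (34.9%), 888, 199 and 12, with 64 list members called against 137 and Rela at -0.081. Without the filter on dim probes the share was 38.1% and the single-fragment and D361E counts 1832 and 45, and with probes above background on all 17 arrays the last was 34. With the 7 arrays alone 655 genes (35.3%) and 86 list members were called. With slide as a block the counts were 785 (35.3%), 539, 246 and 24. A change of at least 1 left 687 (32.2%) and 85 list members. Rela was 0.28 within slide 4 and -0.017 within slide 3.

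A replicate block on rounds of title numbers gave 6072 genes (53.03%), 323 list members, 6991, 4688 and 248, and all 1481 genes were among the 6072. Same-round arrays correlated at 0.04, 0.55 and 0.28 in their deviations, and the labels do not call rounds batches, so the numbers were not taken as pairing. The median SE was 0.225 without that block and 0.151 with it. On the first axis of the spread within groups round 3 scored highest in each of the 5 groups (14.9 to 58.5), and round 4 lowest in both groups that had it (-52.8 and -32.2). Slide 2 held round 3 of the fragment pair and round 1 of D361E, slide 3 rounds 2 and 4, and slide 4 rounds 1 and 3. Values within slides and with the slide block may therefore also carry differences between rounds.

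Leaving out 1 array gave 863 to 2750 genes, 39.4% to 47.6% higher, 100 to 179 list members, 1062 to 5332 against the single fragments, 450 to 1242 against WT, 39 to 93 for D361E and 0.09 to 0.17 for Rela. The cause of these movements was not tested.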

Other observations

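These gene families were chosen after their values were seen, and some share members with the lists above, such as Ccl3 and Ccl4, Gbp2 and Gbp4, Fcer1a and Oas genes. No test was made of the families themselves, and over all genes 4.32% were called higher and 5.39% lower. All 3 measured paired Pilr receptors of myeloid cells fell: Pilra by 4.98 ± 0.40 (limma adjusted p = 8.24e-07), while Pilrb1 and Pilrb2 were at least 16.7-fold and 14.3-fold lower. Of 4 inter-alpha-trypsin inhibitor heavy chains 3 fell, with Itih4 down by 3.88 ± 0.13 (5.99e-11), Itih3 at least 9.04-fold lower and Itih1 at least 5.20-fold lower, and Itih5 changed by 0.36 ± 0.22 (0.322). Of 8 CC chemokines 6 fell, Ccl6 by 2.41 ± 0.26 and Ccl17 by 1.44 ± 0.15 among them.

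Of 7 Fc receptor genes 4 fell, with the inhibitory receptor Fcgr2b down by 4.10 ± 0.23 (limma adjusted p = 1.88e-08), while Fcgr1 and Fcgr3 changed by 0.19 ± 0.21 and 0.09 ± 0.36 and were not called. Of 9 guanylate-binding protein genes 4 fell and 1 rose, and Gbp9 and Gbp11 fell by 2.44 ± 0.36 and 2.06 ± 0.37. Of 9 calcium-binding S100 genes 4 fell, S100a6 by 1.82 ± 0.17 (2.91e-06). In the Oas family of antiviral enzymes 3 of 10 rose and 0 fell. Falls alone were also called in 3 of 4 granzymes, 3 of 4 Padi genes, 3 of 4 Cd200 receptor genes and 2 of 2 serum amyloid A genes. Some of these genes, such as Gzmb, Padi4, Cd200r3 and Saa3, were named above. Some other families had few or mixed calls, with 1 higher and 1 lower of 12 C-type lectins, 0 of 4 Siglec genes, 0 of 3 Cd300 genes, and 5 higher and 2 lower of 16 interleukin receptors.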
